A study of Mus musculus with 12 samples.

Results

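The tight junction genes Tjp1, Tjp3, Cldn1, Cldn2, Cldn3, Cldn12, Cldn14, Ocln and Cgn were followed in the Ribo-seq data of mouse liver. They are 9 of the 25033 entries of the Ribo-seq table and were picked by gene symbol. The set was put together because Tjp3 had no value above 0 in any library of the lycopene group, so the comparison between the groups had been seen before the genes were picked. For this reason the levels and fold changes of these 9 genes are a description. Where they are counted among the calls of a fit across all genes, the count describes these libraries and is no test of the set. Ribo-seq sequences the stretches of mRNA that ribosomes cover, so a gene's reads count ribosome footprints. Livers came from male C57BL/6 mice aged 16 weeks that had been on their diet for 8 weeks. Mice of the HFD group (3 Ribo-seq libraries) ate a high-fat feed, and mice of the LYC group (3 Ribo-seq libraries) ate that feed with lycopene, a carotenoid of tomatoes, mixed in. Every library used here therefore comes from a mouse on a high-fat diet. The lycopene of LYC is named by the sample titles and the paper, while its treatment label names only the high-fat diet. The labels speak of pooled RNA or footprints. The paper speaks of pooled digested samples for Ribo-seq and also of biological replicates. Any p-value below therefore measures only the spread between these libraries.

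Tight junctions are the belts by which neighbouring epithelial cells seal the space between them. Claudins span the membrane and pair across the gap, where some close it and others form pores for ions and water. Occludin, another membrane protein, joins them, and the zonula occludens proteins (genes Tjp1 and Tjp3) together with cingulin (gene Cgn) tie these strands to the actin cytoskeleton inside the cell. In the liver they line the bile canaliculi, the fine channels between hepatocytes, and so keep bile apart from blood. The cells of the bile ducts (cholangiocytes) have tight junctions as well.

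The reads behind the deposited RPKM values (reads scaled to gene length and library size) were recovered from the steps between these values. Depth differed between the groups without overlap, from 834410 to 4405541 reads per library in HFD and from 311050 to 412116 in LYC, so depth and group cannot be told apart. A single read on a gene of 1 kb was worth 0.227 to 1.20 RPKM in HFD and 2.43 to 3.21 RPKM in LYC. Markers of hepatocytes were high in both groups, with 9 of 9 detected and a summed level of 41096 to 45002 RPKM in HFD and 28996 to 37772 RPKM in LYC. Hepatocyte sums were lower in all LYC libraries than in any HFD library, while 2 of the 9 markers were called higher in LYC and 0 lower. Genes of small non-coding RNA held 2.71% to 4.09% of a library's gene reads in HFD and 8.95% to 12.7% in LYC, without overlap. A scaling formed without these genes is given below, and any other part of this shift in the results was not tested. The libraries labelled RNA-seq were close to those labelled Ribo-seq. Each of the 6 had its best match in 1 Ribo-seq library of its own group. Between 63.0% and 79.2% of genes with at least 10 reads had a count within 5% of that of the best match, compared with 0.0366% to 6.996% for the next one, and in HFD the match carried another replicate number. The totals were not the same, with 582184 to 687242 counts in LYC where the matches held 311050 to 412116 reads. The RNA-labelled libraries are therefore not an independent measure, and they are given apart at the end. Which of the assay labels describes the shared reads cannot be told from the values, and footprints is used below as the labels have it.

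The 9 genes lie on 7 chromosomes, as placed by the GENCODE annotation of GRCm38. Tjp3 (ENSMUSG00000034917.8) is at chr10:81273207-81291581 on the minus strand with 21 merged exons, and its last 40 exon bases are shared with Apba3 on the opposite strand. Cldn1 (ENSMUSG00000022512.3) is at chr16:26356642-26371841 on the minus strand with 4 exons, and Cldn14 is on the same chromosome at chr16:93919031-94008837. Cgn (ENSMUSG00000068876.14) is at chr3:94760069-94786492 on the minus strand with 20 exons. Cldn3 is a gene of 1 exon at chr5:134986214-134987472 on the plus strand, of which 40 bases are shared with the antisense gene Wbscr25, and Cldn12 is at chr5:5489537-5514958. Cldn2 is at chrX:139800828-139811386, Ocln at chr13:100496507-100552718 and Tjp1 at chr7:65296165-65527781. Whether reads were counted by strand is not given in the sources used here, so reads in the shared bases of Tjp3 and Cldn3 cannot be assigned. For the 3 members that are called below, the 250 bases before the start of the gene are shown 5′ to 3′ on the gene's strand, from RefSeq on GRCm38.p6. Capitals mark CAGGTG, the E-box bound by Snail-type repressors of epithelial genes, GGGCGG, the GC box, and AGGTCA, the half-site of nuclear receptors. Both strands were searched, so the reverse complement of each is in capitals too, and no marked matches share a base.
Tjp3, chr10:81291582-81291831, minus strand: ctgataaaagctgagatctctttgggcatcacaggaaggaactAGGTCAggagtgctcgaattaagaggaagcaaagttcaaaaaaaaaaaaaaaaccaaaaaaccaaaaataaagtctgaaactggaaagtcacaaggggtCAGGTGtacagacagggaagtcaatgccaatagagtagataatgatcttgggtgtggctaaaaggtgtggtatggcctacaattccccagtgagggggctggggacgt
Cldn1, chr16:26371840-26372089, minus strand: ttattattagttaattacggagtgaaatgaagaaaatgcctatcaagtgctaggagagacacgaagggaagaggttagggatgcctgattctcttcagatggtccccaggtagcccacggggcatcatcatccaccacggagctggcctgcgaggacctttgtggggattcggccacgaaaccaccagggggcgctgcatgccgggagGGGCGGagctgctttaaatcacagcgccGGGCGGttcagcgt
Cgn, chr3:94786483-94786732, minus strand: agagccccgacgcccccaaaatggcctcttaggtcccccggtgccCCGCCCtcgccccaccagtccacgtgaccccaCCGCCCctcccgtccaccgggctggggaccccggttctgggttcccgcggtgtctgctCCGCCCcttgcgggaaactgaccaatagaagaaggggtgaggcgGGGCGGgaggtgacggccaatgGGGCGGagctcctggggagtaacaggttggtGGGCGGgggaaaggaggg

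The 3 windows differ in base composition. That of Tjp3, for the outer of its 2 starts, had 43.2% GC, 2 CpG and 1 match each to CAGGTG and AGGTCA. The window of its inner start, not shown, had 57.2% GC, 7 CpG, 1 CAGGTG and 0 AGGTCA. The Cldn1 window had 55.6% GC, 14 CpG and 2 GC boxes. The Cgn window had 70.4% GC, 19 CpG and 6 GC boxes, against a median of 52.4% GC and 6 CpG over 32851 mouse promoters. Over all 9 genes, which have 15 windows, CAGGTG was found in 4 windows (Tjp3, Ocln and Cldn14), GGGCGG in 8 windows of 6 genes and AGGTCA in 5 windows (Tjp3, Ocln and Cldn14). Of all promoter windows of the same length, 17.2% held CAGGTG, 32.7% GGGCGG and 14.0% AGGTCA. These are matches of letters, and the data hold no measure of a factor bound there.

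Tight junction genes had far fewer footprints in LYC than in HFD for some members and a like level for others. The summed level of the 9 genes was 144, 152 and 114 RPKM in HFD1, HFD2 and HFD3 and 47.4, 50.6 and 64.0 RPKM in LYC1, LYC2 and LYC3, with means of 137 ± 20.2 and 54.0 ± 8.83 RPKM (SD, n = 3 libraries each). All 9 genes had a read in each HFD library, whereas 6, 7 and 8 of them had one in LYC1, LYC2 and LYC3. Behind the sums stood 290 to 2052 reads per HFD library and only 51 to 84 reads per LYC library. Tjp3 had none in LYC, the mean level of Cldn1 in LYC was 14.2% of that in HFD, that of Cgn 28.3% and that of Cldn3 29.5%, whereas Tjp1 stood at 86.3%. In bulk tissue, fewer cells of a type and less RNA per cell cannot be told apart.

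**Figure D1:**
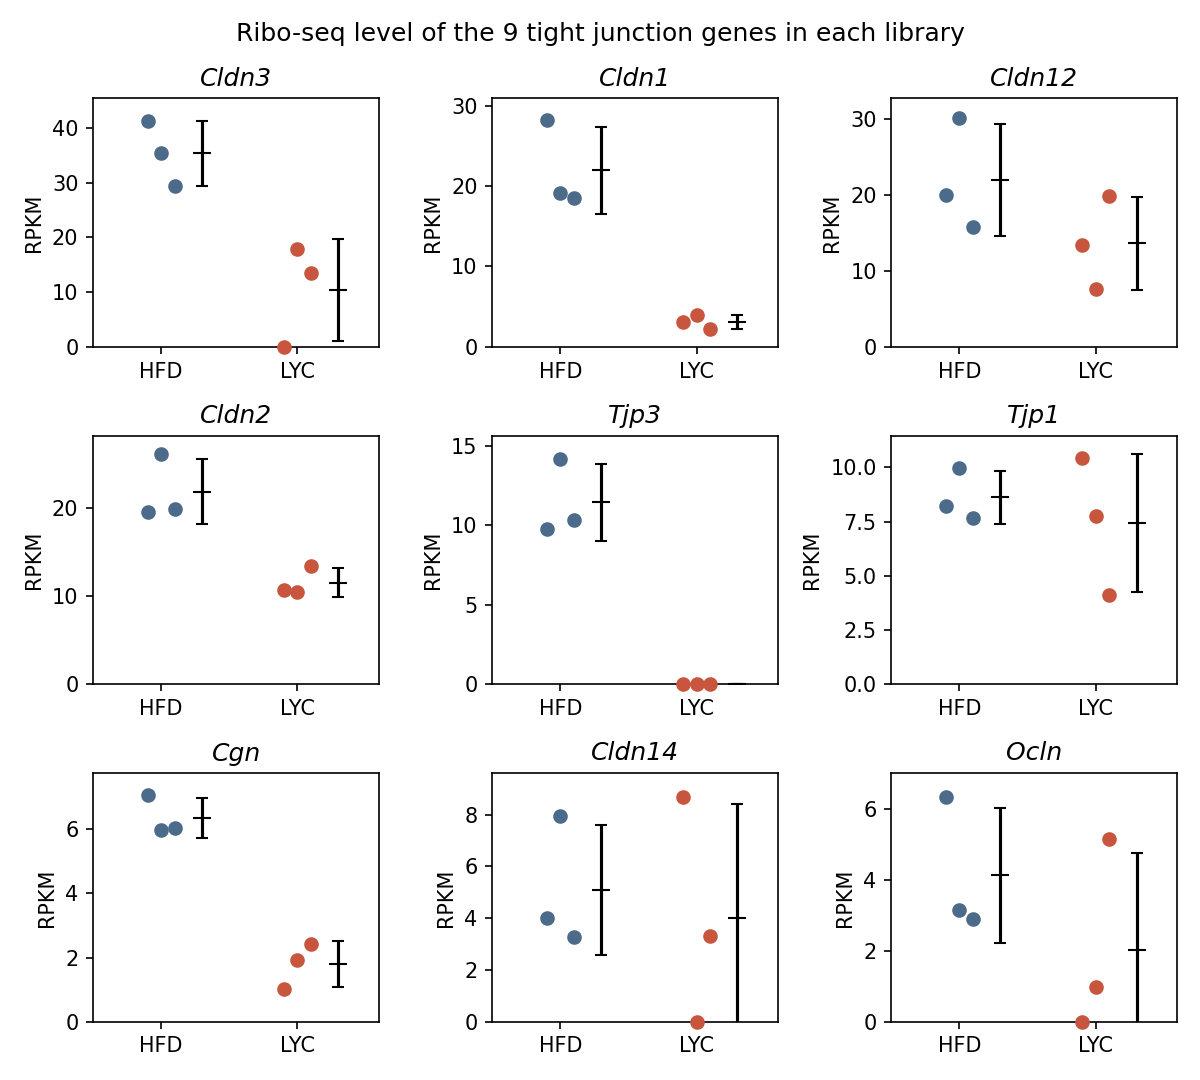
Ribo-seq level (RPKM, y axis of each panel from 0) of each of the 9 genes in the 3 HFD libraries (blue) and the 3 LYC libraries (red), points in the order of replicates 1 to 3, with the mean and SD of the 3 libraries beside them (bars end at 0 where the SD passes it). Tjp3, Cldn1, Cldn2, Cldn3 and Cgn have no LYC point as high as their lowest HFD point, while the points of Tjp1, Cldn12, Cldn14 and Ocln overlap.

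Among the scaffold proteins under the membrane, Tjp3 and Tjp1 showed opposite extremes. Tjp3 (zonula occludens protein ZO-3) binds claudins and its relatives through its PDZ domains. Its level was 9.77, 14.2 and 10.4 RPKM in HFD1, HFD2 and HFD3, from 80, 188 and 26 reads. In LYC1, LYC2 and LYC3 it was listed at 0, with 0 reads in each. At its HFD level, and with TMM scaling, 9.71, 9.66 and 11.7 reads would have been found in these libraries, 31.1 in all. With a floor of 3 reads per LYC library, Tjp3 was at least 3.43-fold lower in LYC after TMM scaling (at least 4.21-fold on plain RPKM). All 3 HFD libraries lay above that floor, which was 2.42 to 3.21 RPKM in the LYC libraries. Floors and intervals cover counting error only.

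A gene without reads in the shallow LYC libraries was common, but not at the depth of Tjp3. In total, 4036 genes had a read in HFD and none in LYC. Among the 3352 genes with at least as many HFD reads as Tjp3 (294), only Tjp3 and Ttn, which encodes the giant muscle protein titin and had 529 HFD reads, were at 0 in all 3 LYC libraries. The 1194 genes within 1.25-fold of the HFD reads of Tjp3 had a median of 29 reads in LYC, and Tjp3 alone of these was at 0. Since Tjp3 was picked for its zeros, this describes how rare they were.

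Tjp1 (ZO-1) is the relative of Tjp3 found in nearly all epithelia. It had 8.22, 9.98 and 7.65 RPKM in HFD1, HFD2 and HFD3 and 10.4, 7.75 and 4.13 RPKM in LYC1, LYC2 and LYC3, from 58 LYC reads where 55.2 would be found at the HFD level. Its highest and its lowest library were both LYC, and the groups overlapped.

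Cgn encodes cingulin, an adaptor that binds the ZO proteins and myosin. Its level was 7.07, 5.97 and 6.02 RPKM in HFD1, HFD2 and HFD3 and 1.02, 1.94 and 2.44 RPKM in LYC1, LYC2 and LYC3. The HFD libraries lay within a narrow band (SD 0.622 RPKM), and all LYC libraries lay below it. The LYC values rest on 2, 3 and 5 reads, 10 in all (95% exact Poisson interval 4.80 to 18.4), where 29.1 would be found at the HFD level. Its mean level was 3.54 times as high in HFD as in LYC.

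Of the members with a read in every LYC library, Cldn1 had the largest ratio between the groups. Claudin-1 is a sealing claudin and serves hepatitis C virus as an entry factor on human hepatocytes. Cldn1 had 28.2, 19.2 and 18.5 RPKM in HFD1, HFD2 and HFD3, from 249, 274 and 50 reads. In LYC1, LYC2 and LYC3 it had 3.13, 3.97 and 2.25 RPKM, from 4, 4 and 3 reads. The highest LYC library was far below the lowest HFD library. The 11 LYC reads (95% exact Poisson interval 5.49 to 19.7) compare with 65.7 at the HFD level, and the mean level was 7.05 times as high in HFD.

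Claudin-3, another sealing claudin, was the most abundant member in HFD. Cldn3 had 41.2, 35.4 and 29.4 RPKM in HFD1, HFD2 and HFD3 and 0, 17.8 and 13.4 RPKM in LYC1, LYC2 and LYC3. The groups did not overlap, but LYC1 stood apart from the other two LYC libraries, and these held only 7 reads each. The 14 LYC reads (interval 7.65 to 23.5) compare with 40.9 at the HFD level.

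Claudin-2 forms pores for cations and water. Cldn2 had 19.6, 26.1 and 19.9 RPKM in HFD1, HFD2 and HFD3 and 10.7, 10.5 and 13.5 RPKM in LYC1, LYC2 and LYC3. All LYC libraries were lower, and both groups were narrow, with means of 21.9 ± 3.67 and 11.6 ± 1.64 RPKM (SD, n = 3 libraries each). The HFD mean was 1.89 times the LYC mean, and 40 LYC reads (interval 28.6 to 54.5) were found where 60.8 would be at the HFD level.

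Cldn12, which encodes a claudin that lacks the usual PDZ-binding end, had 20.0, 30.0 and 15.8 RPKM in HFD1, HFD2 and HFD3 and 13.4, 7.63 and 19.8 RPKM in LYC1, LYC2 and LYC3. The groups overlapped, as LYC3 exceeded HFD3. Cldn14, whose product tightens junctions against cations in the kidney and inner ear, had 4.03, 7.94 and 3.29 RPKM in HFD and 8.69, 0 and 3.33 RPKM in LYC, in replicate order. Its LYC values came from 5, 0 and 2 reads and spanned the whole HFD range. Ocln, the gene of occludin, had 6.32, 3.16 and 2.90 RPKM in HFD and 0, 0.972 and 5.14 RPKM in LYC, from 0, 1 and 7 LYC reads. Its 8 LYC reads (interval 3.45 to 15.8) include the 12.7 that the HFD level would give, so a difference was not detectable at this depth.

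**Figure D2:**
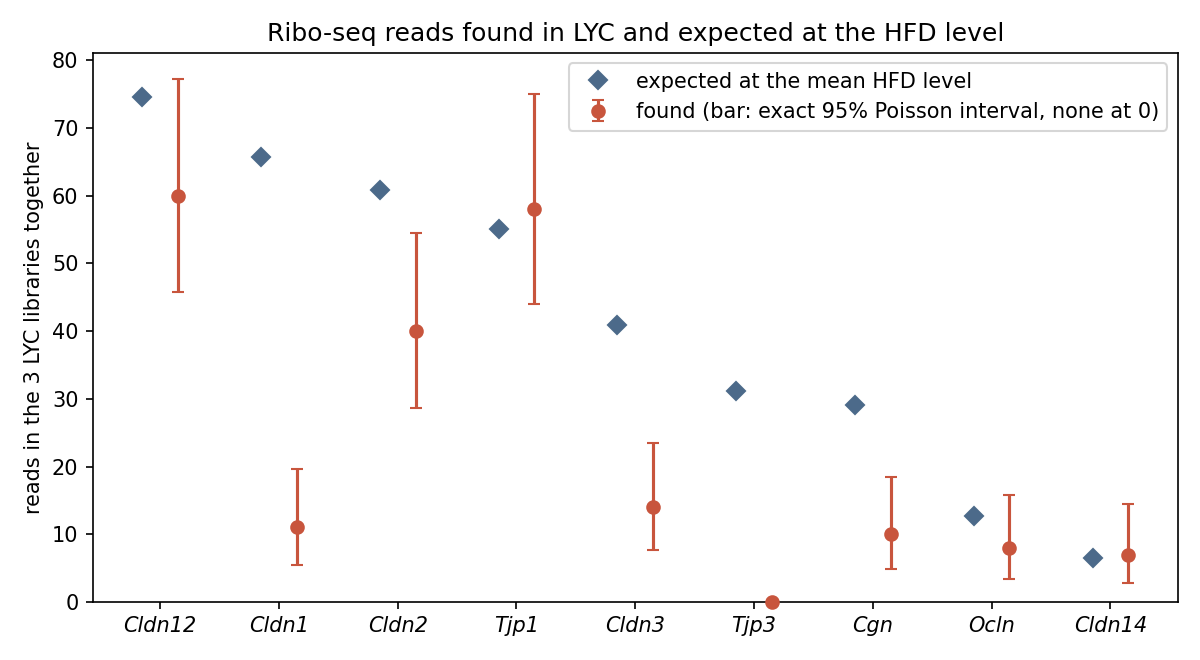
Reads found on each of the 9 genes in the 3 LYC libraries together (red circles, with the exact 95% Poisson interval except at 0 reads) and the reads that the mean HFD level would give at the depth of these libraries after TMM scaling (blue diamonds), y axis in reads. For Cldn1, Cldn2, Cldn3 and Cgn the expected number is above the interval and for Tjp3 31.1 are expected and 0 found, while for Cldn12, Tjp1, Ocln and Cldn14 it lies inside. The interval covers counting error only, takes the HFD level as fixed and leaves out the spread between libraries, so it is no test of a difference. In the fits given below, Cldn2 was called in 0 and Cldn3 in 1 of 19 alternatives.

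RPKM is per length, so levels can be set in order between genes. In HFD, Cldn3 was highest at 35.4 ± 5.91 RPKM, above Cldn1 (22.0 ± 5.40), Cldn12 (21.9 ± 7.31) and Cldn2 (21.9 ± 3.67), which did not differ beyond their spread (SD, n = 3 libraries). They were followed by Tjp3 (11.4 ± 2.41) and Tjp1 (8.61 ± 1.21), whose ranges overlapped, and by Cgn (6.35 ± 0.622), Cldn14 (5.08 ± 2.50) and Ocln (4.13 ± 1.91), whose ranges overlapped from one to the next. Ranges of neighbours were apart only between Cldn3 and Cldn1, Cldn2 and Tjp3, and Tjp1 and Cgn. In LYC the order was Cldn12 (13.6 ± 6.10), Cldn2 (11.6 ± 1.64), Cldn3 (10.4 ± 9.29), Tjp1 (7.43 ± 3.16), Cldn14 (4.01 ± 4.39), Cldn1 (3.11 ± 0.861), Ocln (2.04 ± 2.73) and Cgn (1.80 ± 0.719), with Tjp3 at 0. There, only the ranges of Cgn and Tjp3 were apart among neighbours. Cldn1, level with Cldn12 and Cldn2 in HFD, had less than either in LYC in every library. Among all genes above 0 in HFD, Cldn3 stood at the percentile 90.1 of the mean level and Ocln at 56.6. The other claudins were nearly silent, as 18 of 23 had 0 reads in all 6 libraries. Of the 5 with an HFD read, Cldn5, a claudin of endothelial cells, was highest with 54 reads and a mean of 5.47 RPKM in HFD.

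For a common scale, LYC was compared with HFD by limma on log2(RPKM / TMM factor + 1), where TMM is edgeR's scaling between libraries, over the 5794 genes with enough reads. Calls needed a log2 fold change beyond 1 in either direction with p below 0.01 before adjustment. Of the 9 genes, 7 had enough reads (not Cldn14 and Ocln), and Tjp3, Cldn1 and Cgn met both limits, all lower in LYC. The filter asks for enough reads in any 3 libraries. These 3 genes passed it only through HFD, the group where they were high. In LYC1, LYC2 and LYC3 they had 0, 0 and 0 (Tjp3), 4, 4 and 3 (Cldn1) and 2, 3 and 5 reads (Cgn). Of all genes tested, 6.42% were called lower and 6.85% higher, 13.3% in all. With total reads as the scaling in place of TMM, the 372 genes lower and 397 higher became 653 lower and 236 higher, and with TMM factors over all genes 481 lower and 313 higher, while the same 3 members were called. TMM factors formed without small non-coding RNA genes gave 362 lower and 408 higher, and again the same 3 members. Since the set was picked from this contrast, nothing is read from its count. On plain RPKM, the groups did not overlap, with LYC lower, for Tjp3, Cldn1, Cldn2, Cldn3 and Cgn, 5 of the 7. This state was shared by 27.5% of all genes tested, whereas 9.87% were apart with LYC higher. Here and below, overlap is read from plain RPKM, unlike the fold changes. The TMM factors were 0.799 to 1.01 in LYC and 1.03 to 1.26 in HFD, so that scaling raises LYC relative to HFD. Which groups stay apart after it is not given here.

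The log2 fold changes of these 7 ran from -3.49 to -0.00 around a median of -1.22, compared with -0.11 for all genes tested. On this scale, 3 reads in each LYC library would give Tjp3 a difference of -1.49. The median is the value of Cgn itself, so any lower value of Tjp3 leaves it the same. The log2 fold change of Cldn1 was -2.23 ± 0.34 (SE), that of Cgn -1.22 ± 0.33, of Cldn2 -0.59 ± 0.27 and of Cldn12 -0.42 ± 0.40. They are not the ratios of the plain means given above, since they use TMM factors, 1 RPKM added to each value and means of the log values of each library. Tjp1 had a log2 fold change of -0.00 ± 0.39, which ran from -0.34 without LYC1 to 0.32 without LYC3. Cldn3, at -2.30 ± 0.97, was called by DESeq2 only, and without LYC1, where it had no read, it was at -0.94. Cldn12 was at -0.01 without LYC2. The fitted value of Tjp3, -3.49 ± 0.29, depends on the number added to values of 0 and is no bound. It was -1.83 with a pseudocount of 4, -5.80 by DESeq2 and -8.73 by edgeR on recovered reads. The call of Cgn ended without HFD1, HFD2, HFD3, LYC1 or LYC2, at log2 fold changes of -1.34 to -1.06. It also ended with a pseudocount of 4 (-0.72), with a correction for gene length (-1.01), with no filter on low genes (-1.22 as before) and at p below 0.001. In a fit of all genes above 0, Cldn14 had a log2 fold change of -0.48 ± 0.89 and Ocln of -0.96 ± 0.76.

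**Figure D3:**
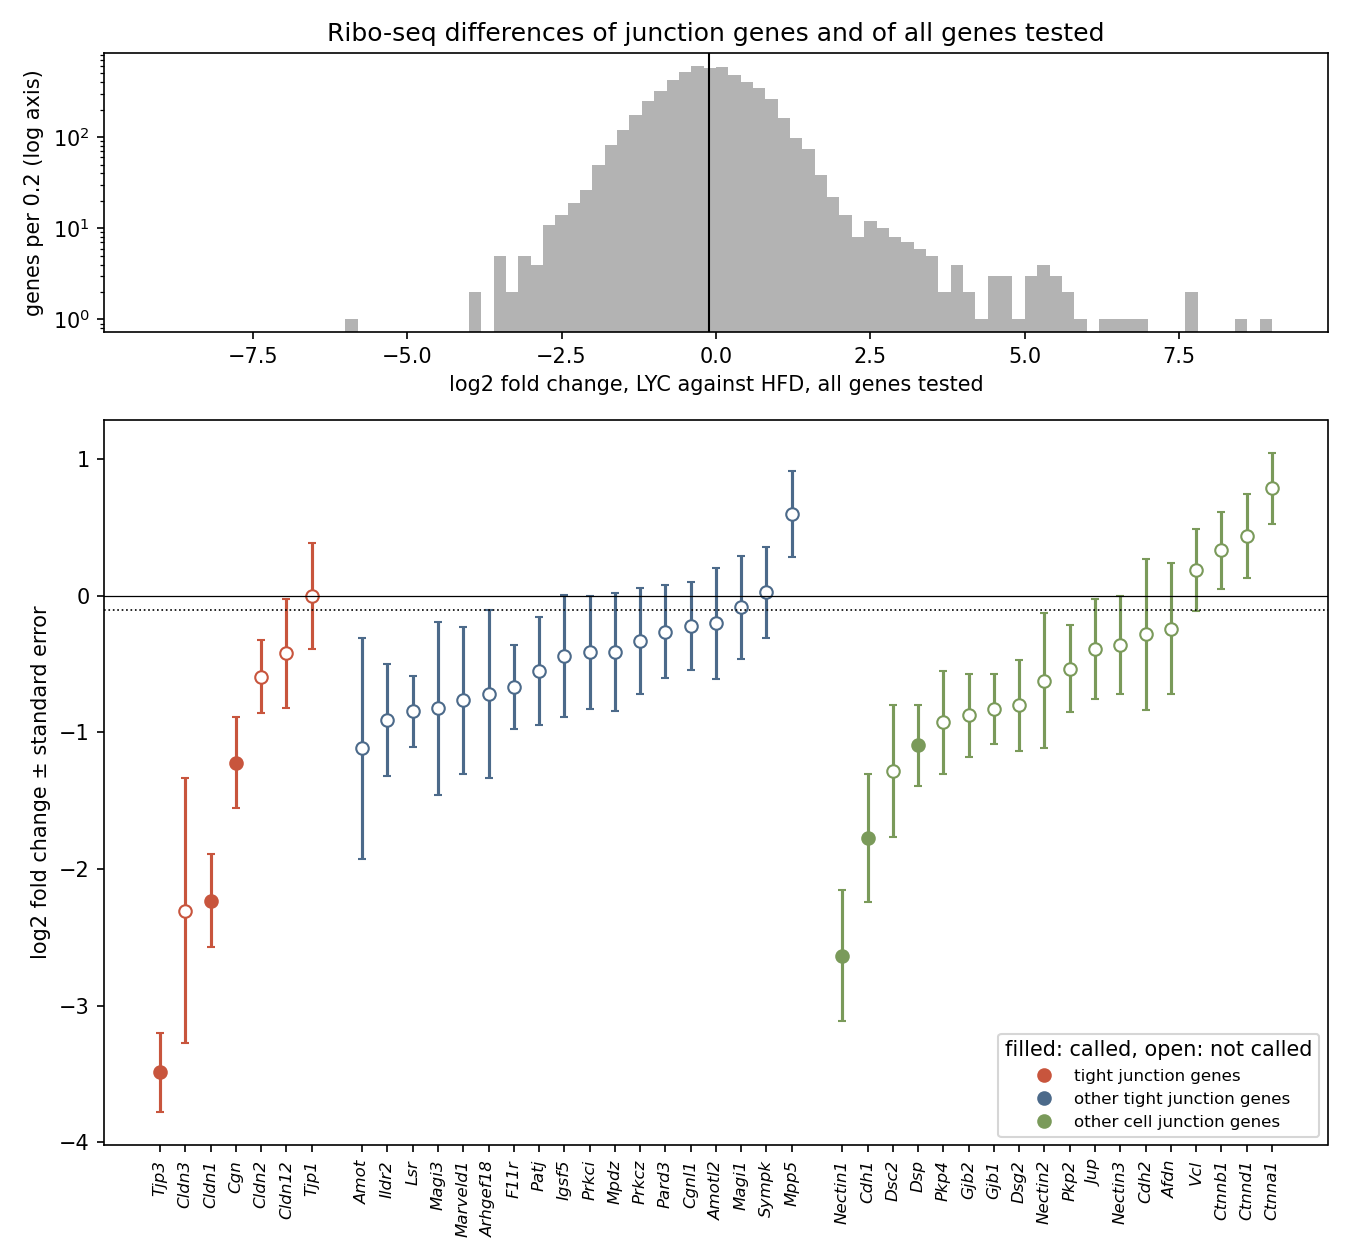
Top, number of genes per bin of log2 fold change (LYC against HFD, log y axis) for all 5794 genes tested, with a line at their median of -0.11. Bottom, log2 fold change and SE of the tested tight junction genes (red), other tight junction genes (blue, 18 of the 19 tested) and other cell junction genes (green), filled where called, with the dotted line at the median of all genes. Tjp3, Cldn1 and Cgn are filled among the red points, none among the blue and Nectin1, Cdh1 and Dsp among the green.

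The other genes of the tight junction were taken from a list of the junction's known parts. The 9 members were picked from this contrast, so the list and the members are given side by side with no test between them. Of 60 in the table, 40 had a read in HFD, 32 in LYC, and 19 had enough reads for the test. By limma, 0 of the 19 were called in either direction, as by edgeR and DESeq2, and 1 (Lsr, lower) had an unadjusted p below 0.05. Of all genes limma called 6.42% lower and 6.85% higher, and 15.2% were lower and 14.7% higher at an unadjusted p below 0.05. Without LYC2, 1 gene (Amot) was called. Genes left out by the filter are not in these counts. Of those, Marveld2 had 78 HFD reads and 1 LYC read, where 10.1 would be found at the HFD level, and it was called with no filter. Arhgap17 had 89 HFD reads and 12 LYC reads, where 10.0 would be found. In all, 17 of the 19 were below 0 (55.4% of all genes tested) and 2 above, and their median was -0.44 on the log2 scale (-0.11 for all genes). The groups were apart with LYC lower for 5 of 19, near the share of 27.5% over all genes. Most abundant in HFD was Lsr, which encodes a protein of the junctions where 3 cells meet. It had 49.9, 63.7 and 73.8 RPKM in HFD and 25.6, 26.6 and 31.2 RPKM in LYC, in replicate order, a log2 fold change of -0.85 ± 0.26 (SE, adjusted p = 0.0709 by limma). F11r, the gene of junctional adhesion molecule A, had 26.97 ± 3.88 RPKM in HFD and 14.0 ± 4.70 RPKM in LYC (SD, n = 3 libraries each, adjusted p = 0.186 by limma). Igsf5, the gene of another junctional adhesion molecule, had 10.6 to 13.8 RPKM in HFD and 4.06 to 12.8 RPKM in LYC (adjusted p = 0.537 by limma), and Pard3, the gene of a polarity protein, 11.7 ± 0.709 and 8.01 ± 2.16 RPKM (adjusted p = 0.635 by limma). On plain RPKM, without TMM scaling, groups were apart for Lsr, F11r and Pard3 but not for Igsf5. Cgnl1, the relative of Cgn and named here after its values were seen, had 10.7 ± 2.05 and 7.50 ± 2.08 RPKM (adjusted p = 0.674 by limma), and its libraries overlapped.

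Adherens junctions, desmosomes and gap junctions, which sit beside the tight junction on the same cell border, served for comparison. Of 25 such genes in the table, 18 were tested, and 3 fell while 0 rose by limma, beside 6.42% of all genes called lower and 6.85% higher. At an unadjusted p below 0.05, 8 were lower in LYC and 1 (Ctnna1) higher, beside 15.2% and 14.7% of all genes, and edgeR and DESeq2 called 0 higher. Nectin1, a cell adhesion molecule of adherens junctions, fell from 34.0 ± 10.2 RPKM in HFD to 4.17 ± 3.13 RPKM in LYC (SD, n = 3 libraries each), a log2 fold change of -2.63 ± 0.48 (SE, adjusted p = 0.0124 by limma). Cdh1, the gene of E-cadherin, fell from 17.4 ± 3.07 to 3.84 ± 2.07 RPKM (-1.77 ± 0.47, adjusted p = 0.0442 by limma). Dsp, the gene of desmoplakin in desmosomes, fell from 12.3 ± 0.966 to 4.23 ± 0.398 RPKM (-1.10 ± 0.30, adjusted p = 0.0492 by limma). The call of Cdh1 ended without HFD1 or HFD3 and that of Dsp without HFD1, HFD2 or HFD3, so that 1 of these genes was called without HFD1 or HFD3 and 7 without LYC3. The call of Dsp also ended with a pseudocount of 4 and with a correction for gene length, and at p below 0.001 Nectin1 alone was called. The most abundant of the 18 were the liver connexins Gjb1 (248 ± 39.3 and 115 ± 23.0 RPKM, adjusted p = 0.0733 by limma) and Gjb2 (106 ± 13.7 and 48.5 ± 16.2 RPKM, adjusted p = 0.0965 by limma), for both of which the groups were apart. Ctnnb1, the gene of beta-catenin, had 57.4 ± 9.53 and 62.4 ± 26.8 RPKM (adjusted p = 0.464 by limma). The median log2 fold change of the 18 was -0.58 (-0.11 for all genes), and for 9 of them the groups were apart with LYC lower (27.5% of all genes).

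Markers of other liver cells are given beside these values, since bile duct cells share the tight junction genes. Of 10 cholangiocyte markers, 8 had a read in HFD and 3 in LYC. Their summed level on plain RPKM was 48.5, 34.9 and 23.9 in HFD1, HFD2 and HFD3 and 12.6, 14.5 and 11.1 in LYC1, LYC2 and LYC3, so the groups were apart. In LYC 7 of them were at 0, among them Krt19, Krt7, Epcam and Cldn7, but the 7 had only 42 HFD reads in all and at most 16 each, 2 of them were at 0 in HFD as well, and Krt19 had 3, 3 and 0 reads in the HFD libraries. Most of the sum came from Spp1 and Onecut1, with mean levels of 16.9 and 13.4 RPKM in HFD. Only 1 of the 10 had enough reads for limma, and 0 were called lower or higher. The part of bile duct cells in the results was not tested. Endothelial markers summed to 68.1 to 92.5 RPKM in HFD and 19.2 to 125 in LYC, Kupffer cell or macrophage markers to 121 to 161 and 98.9 to 173, and stellate cell markers to 85.7 to 164 and 81.3 to 124, each overlapping between the groups. Lymphocyte markers summed to 4.49 to 5.61 RPKM in HFD and 0.966 to 2.77 in LYC, with 5 of 7 at 0 in LYC and 1 in HFD. The list for intestinal or pancreatic epithelium summed to 127 to 185 RPKM in HFD and 241 to 396 in LYC, with 4 of 7 at 0 in HFD, 5 in LYC, and 1 called higher in LYC.

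The genes whose levels were most like those of Cldn1 over the 6 Ribo-seq libraries were Zfp36l1 (Pearson r = 0.992), Mir181a-2 (0.990), Grk4 (0.989), Malat1 (0.987) and Marf1 (0.986). Levels here are log2(RPKM / TMM factor + 1), and the libraries share their group and their depth with every gene. Of the genes tested, 75 had r above 0.95. Of the members, Tjp3 had r = 0.959 with Cldn1, Cgn 0.903, Cldn2 0.81, Cldn3 0.588, Cldn12 0.302 and Tjp1 0.133. With 3 libraries in each group these values largely restate the difference between the groups, and that of Tjp3 rests on its zeros in LYC.

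In the RNA-labelled libraries the members repeated their Ribo-seq reads. Tjp3 had 193, 27 and 81 counts in HFD1, HFD2 and HFD3 and 0 in each LYC library, where the matching Ribo-seq libraries held 188, 26 and 80 reads. Cldn1 had 280, 50 and 253 counts in HFD and 4, 4 and 3 in LYC, which in LYC are its Ribo-seq reads. In LYC the counts were equal to the Ribo-seq reads for 7 of the 9 genes, and the largest difference in any library was 16 counts, for Cldn2. Cldn14 had the same counts in all 6. By edgeR on these counts, 7 of the 9 were tested and 2 (Tjp3 and Cldn1) were called lower, beside 7.33% of the 5921 genes tested, and 9.31% were called higher. Because these counts are nearly those of the Ribo-seq libraries, a ratio of footprints to mRNA was not formed.

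**Figure D4:**
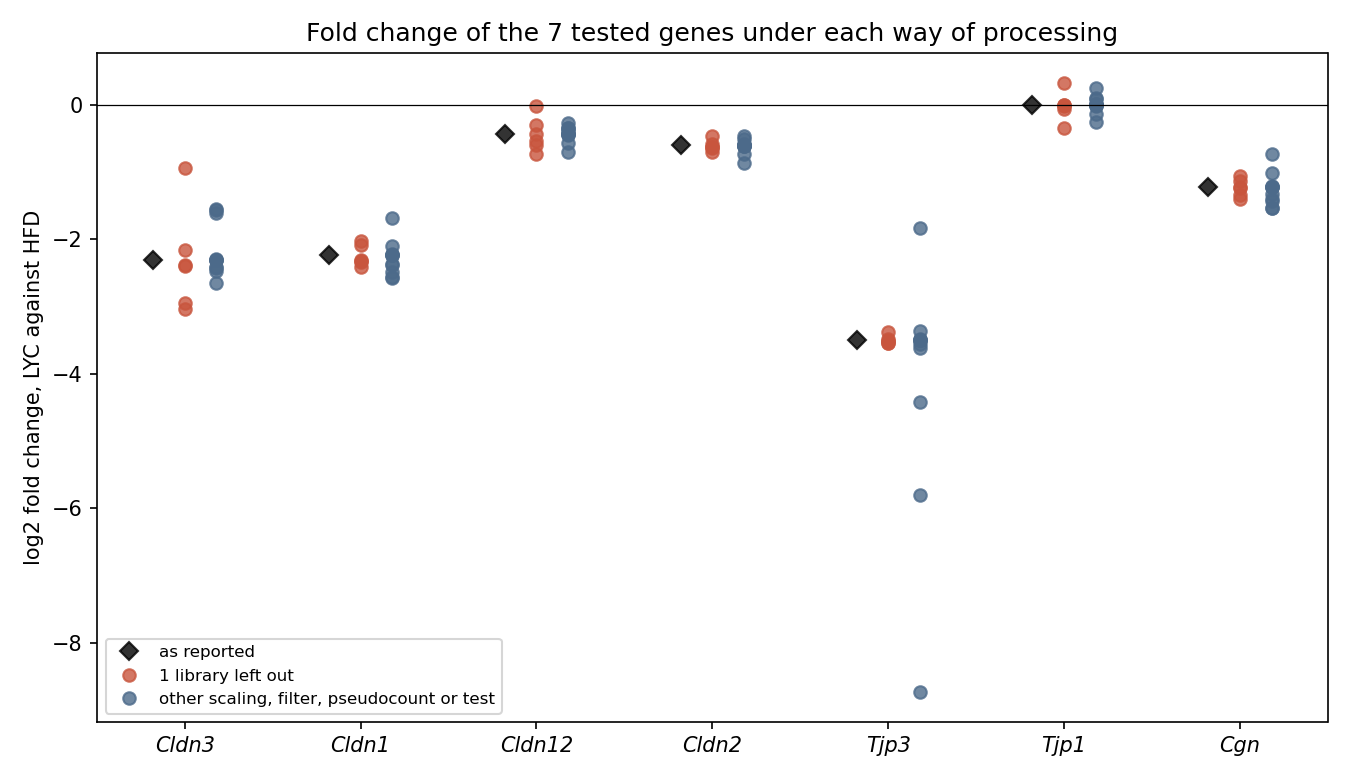
Log2 fold change (LYC against HFD, y axis) of the 7 tested genes as reported (diamonds), with 1 library left out (red) and under other scalings, filters, pseudocounts or tests (blue). Cldn1, Cldn2, Cldn3, Cldn12, Cgn and Tjp3 stay below 0 throughout, though Cldn3 reaches -0.94 without LYC1 and Cldn12 -0.01 without LYC2. Tjp1 lies on both sides of 0.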

How the data were processed

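RPKM were deposited by the authors for Ribo-seq, and counts with RPKM for the RNA-labelled libraries. Raw reads had been processed with cutadapt and bowtie2 before alignment by STAR (GRCm38/mm10) and quantification by FANSE2. Versions, annotation and strand setting are not given in the sources used here. Ribo-seq reads were recovered from the RPKM steps with the gene length implied by the RNA-labelled table (11406 genes) or a fitted length (4338 of 15749 genes above 0). On simulated data 94.8% of 11625 values were recovered exactly. Of 25033 entries, 4 sharing a name were left out. TMM factors (edgeR 4.0.16) came from genes kept by filterByExpr. LYC was compared with HFD by limma 3.58.1 (R 4.3.3, two-sided, mean-variance trend, pseudocount 1, Benjamini-Hochberg over all genes tested), and RNA-labelled counts by edgeR's quasi-likelihood test. In a simulation of this comparison, limma called 190 of 196 genes changed 4-fold and 66 of 5724 unchanged ones. The changed genes were drawn only from those with several reads expected in the shallowest library. All genes were given the same dispersion, and no shift of small non-coding RNA was simulated. The shares called therefore do not carry over to genes with few LYC reads. Tests on recovered reads (edgeR, DESeq2 1.42.0) were alternatives, beside other scalings, filters, pseudocounts, limits, a replicate block, a length correction and leaving out each library.

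The members and lists were chosen with earlier results of these data known. Named were the 9 members, of each other junction list the genes called and the 4 most abundant in HFD, the genes at 0 in LYC with at least the HFD reads of Tjp3 (up to 5), and the 5 genes most like Cldn1. Cgnl1, Amot, Marveld2, Arhgap17 and Ctnna1 were named after their values were seen. Not every gene of the lists is reported here by name. Marker lists covered hepatocytes, cholangiocytes, endothelial cells, Kupffer cells or macrophages, stellate cells, lymphocytes and intestinal or pancreatic epithelium. Promoters of all 9 members came from RefSeq (GRCm38.p6).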

Additional observations from a re-analysis of the deposited data

How the results depend on the processing

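The number of members called in Ribo-seq was 2 to 4 over 19 alternatives, against 3 as reported. Among the other tight junction genes 0 were called, which became 1 with total reads as the scaling (Lsr) and 1 with no filter on low genes (Marveld2), and 0 to 1 with a library left out (Amot without LYC2). Among the other cell junction genes 3 were called, which became 6 with total reads and 1 at p below 0.001, and 1 to 7 with a library left out (1 without HFD1 or HFD3, 7 without LYC3). In the RNA-labelled libraries 2 members were called, 2 to 3 with a library left out, and 6 with total reads. The level order in HFD kept 5 to 7 of 9 positions with a library left out (5 without HFD2). Over all genes, total reads moved the median log2 fold change from -0.11 to -0.36 and TMM over all genes, chosen after seeing the data, to -0.24. Genes called lower were 372, against 653 with total reads, 720 with no filter, 144 (without HFD3) to 708 (without LYC3) with a library left out and 105 at p below 0.001, where 193 were higher against 397. The causes were not tested. Samples with the same replicate number deviated together by correlations of 0.109, 0.0278 and 0.00753, so the numbers were not used as pairs. With the replicate block, 2 members (without Cgn), 0 other tight junction genes, 2 other cell junction genes (without Dsp) and, in the RNA-labelled libraries, 3 members were called. Depth limits the members with few LYC reads, such as Cldn14 with 7 and Ocln with 8.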
